A study of Homo sapiens with 18 samples.

Results

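The 10 genes described here encode the transcription factors of the AP-1 complex and its close relatives in the early response to stress. They are FOS, FOSB, FOSL1 and FOSL2 of the FOS family, JUN, JUNB and JUND of the JUN family, the related leucine zipper factors ATF3 and JDP2, and the zinc finger factor EGR1. They were chosen by name, from 25435 rows of genes in the deposited count table, and each of the 10 has a row and passed the filter on low counts in every comparison. The cells are HEK293doxERN2, a line of HEK293 human embryonic kidney cells with a FLAG-ERN2 transgene under the control of doxycycline. ERN2, also named IRE1β, is a sensor of stress in the endoplasmic reticulum (ER) that is normally expressed in mucosal epithelium, so that a kidney line carries it here out of its usual setting. RNA-Seq covered 18 libraries in 6 groups of 3. Cells labelled No ERN2, Low ERN2 and High ERN2 had doxycycline at 0, 10 and 100 ng/mL for 24 hours, the doses being listed by the labels in that order. At each dose, cells labelled control had the vehicle DMSO, and cells labelled stress had 200 nM thapsigargin, which blocks the calcium pump of the ER, both for 3 hours. All groups carried the transgene, and nothing in the labels says that the replicates came from separate cultures, so the p-values measure the spread between these libraries.

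AP-1 is a dimer of leucine zipper proteins. JUN proteins pair with each other or with FOS proteins, whereas FOS proteins need a partner, and JDP2 and ATF3 can take a place in such dimers, often as repressors. Many of these genes are transcribed within minutes of a stimulus, from promoters that already hold the factors they need, and their mRNA decays quickly, so a sample taken at 3 hours is late for the first wave of FOS and EGR1. During ER stress, ATF3 is transcribed downstream of the kinase PERK and the factor ATF4, while the IRE1 sensors can recruit TRAF2 and lead to activation of the JNK kinases, which phosphorylate JUN protein, a step that mRNA does not show.

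Libraries held 14876416 to 24652240 counts on genes. ERN2 itself, transgene and resident gene together, lay between 6.57 and 14.2 counts per 1000000 counts of the library (CPM) in the 6 libraries without doxycycline, between 22.5 and 112 CPM at 10 ng/mL and between 175 and 309 CPM at 100 ng/mL. At 10 ng/mL replicate 3 had the highest ERN2 in both arms (55.9 and 112 CPM), and in the High ERN2 stress group replicate 1 stood at 272 CPM against 175 CPM in each of the other two. The protocol in the labels speaks of colon crypt cells, but 7 of 7 genes known from the HEK293 line had a median over 1 CPM and 7 of 10 colon markers did not, with CDX1, MUC2 and CDH17 at a median of 0. The summed level of the HEK293 genes was 1582 to 2676 CPM per library, and that of the colon markers 21.2 to 59.3 CPM. Within some groups the 10 genes tended to be high or low together, a count that was not made over all genes. Replicate 3 was the highest for 9 of 10 genes in the Low ERN2 stress group and for 8 of 10 in the No ERN2 stress group, and replicate 1 was the lowest for 9 of 10 in the Low ERN2 control group. The No ERN2 control group was more mixed, with replicate 1 the highest for 4 genes and replicate 3 for 6. The part that these libraries have in the results below was not tested except where a value without them is given.

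The regulatory sequence just before the start site is shown for ATF3, JDP2, FOS, EGR1 and JUND, each called in a comparison below, and for JUN, the most abundant of the 10 per length, as a description of what the promoters hold. These genes were chosen after their values were seen, and FOSL2, also called, is not shown. The windows are the 250 bases upstream of the RefSeq start site in GRCh38, read 5′ to 3′ on the strand of the gene. Capitals mark matches, on either strand, to the CRE core TGACGT or the full CRE TGACGTCA, to the JUN-type variant TGACATCA, to the amino acid response type site TGATGNAA and to the CArG box.
EGR1, chr5:138465229-138465478, plus strand: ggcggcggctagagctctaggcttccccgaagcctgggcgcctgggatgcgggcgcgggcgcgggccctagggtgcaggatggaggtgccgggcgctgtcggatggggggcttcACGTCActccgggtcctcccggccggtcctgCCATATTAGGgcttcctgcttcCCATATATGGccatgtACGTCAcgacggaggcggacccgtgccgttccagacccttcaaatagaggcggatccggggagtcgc
FOS, chr14:75278578-75278827, plus strand: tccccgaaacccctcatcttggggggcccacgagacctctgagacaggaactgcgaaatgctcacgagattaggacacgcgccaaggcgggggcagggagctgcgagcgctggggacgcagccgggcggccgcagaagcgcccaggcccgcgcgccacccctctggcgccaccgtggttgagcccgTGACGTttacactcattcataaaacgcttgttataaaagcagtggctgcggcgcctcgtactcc
JUN, chr1:58784048-58784297, minus strand: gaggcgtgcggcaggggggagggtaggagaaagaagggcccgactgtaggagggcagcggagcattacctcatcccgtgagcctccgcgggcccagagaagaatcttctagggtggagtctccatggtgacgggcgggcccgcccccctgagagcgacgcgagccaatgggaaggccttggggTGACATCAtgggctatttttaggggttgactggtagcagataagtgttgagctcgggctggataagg
ATF3, chr1:212565157-212565406, plus strand: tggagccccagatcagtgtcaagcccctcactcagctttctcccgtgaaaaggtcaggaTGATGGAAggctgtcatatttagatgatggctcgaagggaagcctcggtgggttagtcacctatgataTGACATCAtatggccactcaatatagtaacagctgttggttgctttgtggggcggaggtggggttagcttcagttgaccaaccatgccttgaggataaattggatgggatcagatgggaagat
JDP2, chr14:75427772-75428021, plus strand: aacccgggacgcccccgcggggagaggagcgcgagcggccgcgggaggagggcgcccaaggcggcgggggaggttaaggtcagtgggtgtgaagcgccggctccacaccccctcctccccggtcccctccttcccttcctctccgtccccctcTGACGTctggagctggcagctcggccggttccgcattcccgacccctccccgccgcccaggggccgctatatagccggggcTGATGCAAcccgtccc
JUND, chr19:18281623-18281872, minus strand: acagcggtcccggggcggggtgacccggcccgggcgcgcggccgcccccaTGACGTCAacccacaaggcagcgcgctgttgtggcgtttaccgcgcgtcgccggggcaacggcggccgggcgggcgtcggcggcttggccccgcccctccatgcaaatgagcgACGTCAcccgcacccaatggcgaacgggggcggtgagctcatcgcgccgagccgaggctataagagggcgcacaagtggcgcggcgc

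The CRE core is bound by CREB and ATF factors and by some JUN dimers, the CArG box by the serum response factor SRF, and sites of the amino acid response type by ATF4 together with C/EBP factors. EGR1 had 2 CArG boxes, which began 105 and 83 bases before the start, and 2 CRE cores. FOS, FOSB and FOSL2 had a CRE core 64, 60 and 66 bases before the start. JUN and ATF3 shared the JUN-type site, at 67 and 123 bases, and ATF3 held TGATGGAA at 191 bases. Both ATF3 sites lay in the first of its 2 windows, the one shown, and the second held no marked site. The counts are per gene, so they do not tell which start of ATF3 these cells used. JDP2 held a CRE core and TGATGCAA, at 97 and 16 bases, in the second of its 3 windows. JUND had a full CRE at 200 bases, within which the core is counted too, and a further core at 87 bases. In all, 6 of 12 member windows held the CRE core against 7.1% of the 35116 windows of the reference, 2 of 12 held the JUN-type site against 2.37%, 1 of 12 a CArG box against 1.16% and 2 of 12 the amino acid response type site against 3.14%. The AP-1 site TGANTCA was in 0 of 12 and in 6.57% of all windows. The XBP1 site UPRE, spelled TGACGTGG, was in 0 of 12 and in 0.612%, and the ER stress element ERSE in 0 of 12 and in 0.074%. The 12 windows belong to 9 of the genes. These matches were not tested as binding sites.

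The levels differed widely between the genes. Per kilobase of exon (GENCODE release 29), uninduced cells with vehicle had 87.1 ± 4.9 CPM per kb of JUN (SD, n = 3), 44.9 ± 3.4 of JUND and 17.0 ± 1.6 of JUNB. FOS was at 1.24 ± 0.28 CPM per kb and FOSB at 2.34 ± 0.39, while FOSL1 and FOSL2 lay at 4.83 ± 0.88 and 4.98 ± 0.49. ATF3 and EGR1 were at 23.5 ± 3.5 and 22.8 ± 1.5 CPM per kb, and JDP2, at 0.76 ± 0.07, was the lowest of the 10. FOS and JDP2 thus rested on few reads, 55 to 293 and 75 to 527 per library over the series. In GENCODE release 29 (GRCh38) the members not yet placed lie at chr19:45467995-45475179 (FOSB, plus strand), chr11:65892049-65900573 (FOSL1, minus strand), chr2:28392448-28417312 (FOSL2, plus strand) and chr19:12791496-12793315 (JUNB, plus strand). JUN and JUNB have a single exon. The gene of FOSB lies within that of ERCC1, on the other strand, with 0 exon bases in common, and JUNB lies within HOOK2 and shares 259 of its 1820 exon bases with it. FOSL2 and JDP2 overlap an antisense gene each. The kit marks the strand but the setting used for counting is not given, so reads of such neighbours may have been counted together.

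**Figure D1:**
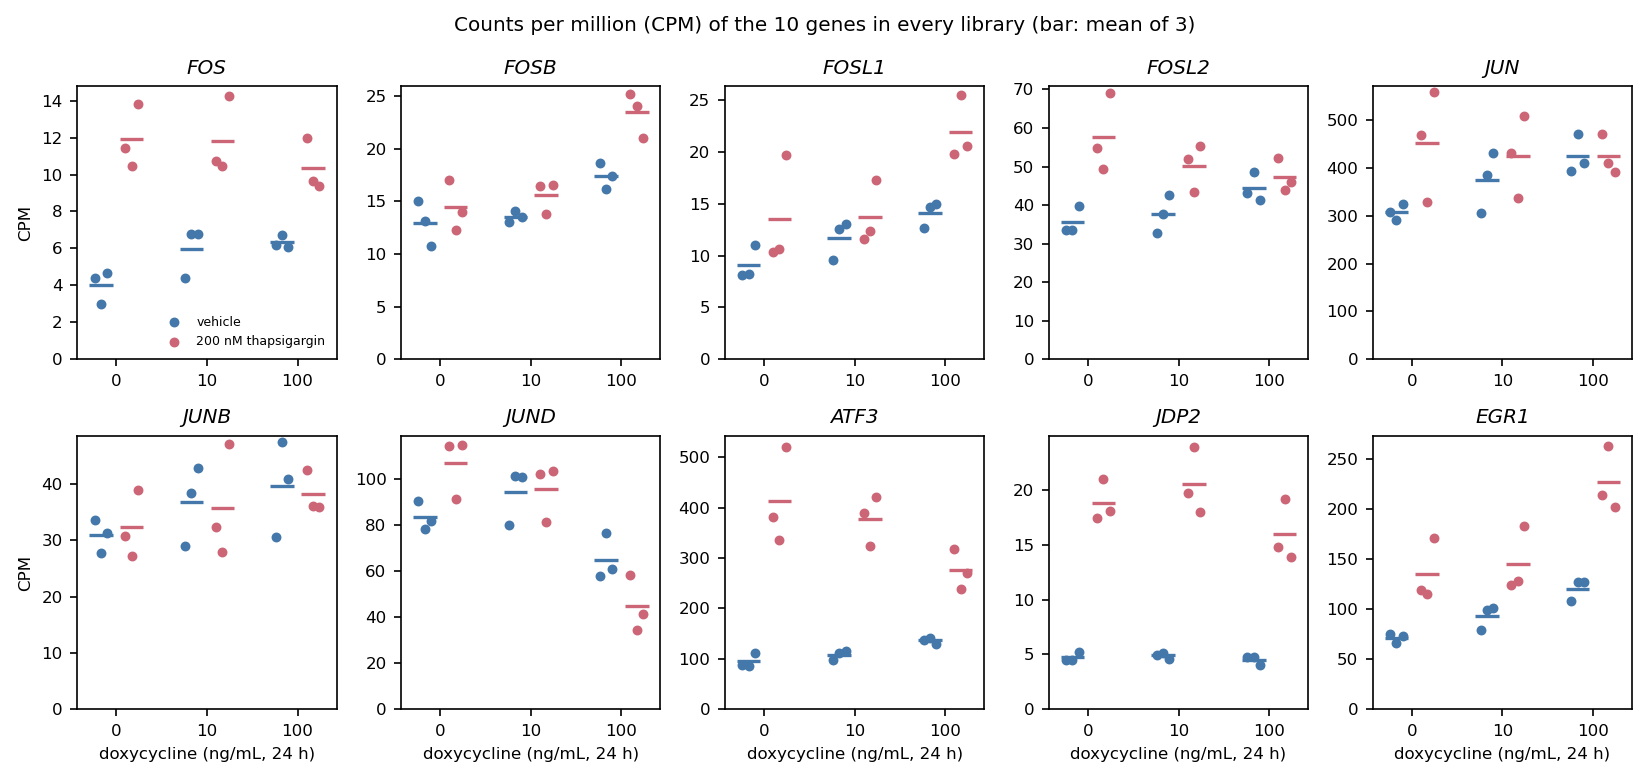
CPM (y axis, from 0, its scale set for each gene) of the 10 genes in all 18 libraries against the dose of doxycycline in ng/mL; points are libraries, bars group means, blue vehicle and red 200 nM thapsigargin. JDP2 and ATF3 show full separation of red from blue at each dose, the means of EGR1 climb with the dose in both colours, and JUND is lowest at 100 ng/mL.

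Thapsigargin was first compared with vehicle in cells without doxycycline, where ERN2 was not induced. The transcripts of ATF3, JDP2, FOS, EGR1 and FOSL2 rose, 5 of 10 genes, and 0 fell, against 6.45% of 14397 genes called higher and 4.74% called lower in this comparison at an adjusted p under 0.01 (edgeR quasi-likelihood test, Benjamini-Hochberg over all genes). The 3 libraries of each group did not overlap for 7 of 10 genes, against 40.0% of all genes. The median log2 fold change of the 10 genes was 0.64, and that of all genes tested was -0.01.

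ATF3, the stress-induced factor downstream of ATF4, stood at 88.3, 85.5 and 112 CPM with vehicle and at 380, 336 and 521 CPM with thapsigargin. Even the lowest stressed library lay above the highest control. Between the groups the fold change was 4.36, or 2.12 ± 0.16 on the log2 scale (SE; adjusted p = 1.83e-06). JDP2, a repressor that binds AP-1 and CRE sites, moved from 4.50, 4.51 and 5.26 CPM to 17.4, 21.0 and 18.1 CPM. Its groups were equally distinct, with a log2 fold change of 2.00 ± 0.16 (adjusted p = 2.3e-06). FOS, the founding member of its family, had 88, 55 and 82 reads with vehicle and 211, 196 and 243 with thapsigargin, that is 4.40, 2.99 and 4.69 CPM against 11.4, 10.5 and 13.8 CPM. The lowest stressed library was above all controls, and the log2 fold change was 1.57 ± 0.20 (adjusted p = 0.000147).

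EGR1, a target of MAP kinase signalling through SRF and its ELK partners, had 75.3, 66.4 and 73.1 CPM with vehicle and 119, 115 and 172 CPM with thapsigargin. The groups did not overlap although replicate 3 of the stressed cells was well above the others, and the log2 fold change was 0.93 ± 0.14 (adjusted p = 0.000702). FOSL2, a longer-lived FOS relative, went from 33.6, 33.6 and 39.7 CPM to 54.8, 49.4 and 69.1 CPM. The groups were separate, with a log2 fold change of 0.71 ± 0.14 (adjusted p = 0.00336), and this call held in 5 of 6 fits that left out 1 library, the exception being that without No ERN2 control replicate 1 (adjusted p = 0.0216). ATF3, JDP2, FOS and EGR1 passed in 6 of 6 such fits.

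The JUN family showed smaller differences. JUN, its most abundant member, had a log2 fold change of 0.56 ± 0.15 (adjusted p = 0.0185) and JUND of 0.36 ± 0.12 (adjusted p = 0.0401), neither past the threshold although the groups of both were separate. JUN had 469, 329 and 559 CPM under stress, replicate 2 being close to the controls at 309, 291 and 325 CPM. Without that replicate the log2 fold change of JUN was 0.74 and passed (adjusted p = 0.00148). JUNB, FOSB and FOSL1 had overlapping groups, with log2 fold changes of 0.07 ± 0.14, 0.16 ± 0.17 and 0.58 ± 0.23.

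At 10 ng/mL of doxycycline the same comparison called 2 of 10 genes higher, against 1.16% of 14607 genes, and 0 lower. Groups did not overlap for 5 of 10 genes, against 28.5% of all genes. ATF3 rose from 98.0, 112 and 115 CPM to 389, 324 and 421 CPM, a log2 fold change of 1.80 ± 0.13 (adjusted p = 8.35e-05). JDP2 rose from 4.97, 5.16 and 4.57 CPM to 19.8, 24.0 and 18.0 CPM, a log2 fold change of 2.06 ± 0.17 (adjusted p = 0.00015). For both genes every stressed library lay above every control. FOS at 0.97 ± 0.21 (adjusted p = 0.0261), EGR1 at 0.63 ± 0.17 (adjusted p = 0.0513) and FOSL2 at 0.41 ± 0.15 (adjusted p = 0.124) had separate groups but did not pass. The other 5 genes had log2 fold changes between -0.05 and 0.22.

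At 100 ng/mL, 2 of 10 genes were called higher, against 0.180% of 14427 genes, and 0 lower, with groups that did not overlap for 6 of 10 genes and 25.8% of all genes. JDP2 rose from 4.80, 4.74 and 3.99 CPM to 14.8, 19.2 and 13.9 CPM, a log2 fold change of 1.84 ± 0.20 (adjusted p = 0.00388). ATF3 rose from 138, 142 and 130 CPM to 317, 239 and 270 CPM, a log2 fold change of 1.04 ± 0.14 (adjusted p = 0.00889). Stressed and control libraries stayed apart for both genes, but the ATF3 call passed in 1 of 6 fits that left out a library, the one without High ERN2 stress replicate 1 (adjusted p 0.000282 there, and up to 0.0961 in the others), and the JDP2 call passed in 2 of 6, those without High ERN2 stress replicate 1 or 3 (adjusted p up to 0.0342 in the others). Over all 6 fits the log2 fold change ran from 0.90 to 1.12 for ATF3 and from 1.69 to 1.94 for JDP2. EGR1 had 108, 127 and 127 CPM with vehicle and 214, 264 and 203 CPM with thapsigargin, a log2 fold change of 0.93 ± 0.15 that did not pass (adjusted p = 0.0137). FOS at 0.73 ± 0.19, FOSL1 at 0.66 ± 0.17 and FOSB at 0.45 ± 0.16 had separate groups and adjusted p of 0.0579, 0.0621 and 0.12. Without High ERN2 stress replicate 1, EGR1 (adjusted p = 0.000486), FOSL1 (adjusted p = 0.00718) and JUND passed too, 5 of 10 genes in all against 17.6% of all genes in that fit. JUND had a log2 fold change of -0.52 ± 0.20 (adjusted p = 0.148), which without that replicate was -0.78 (adjusted p = 0.00244), and JUN, at 0.02 ± 0.13, and JUNB, at -0.03 ± 0.18, had group means close to each other.

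**Figure D2:**
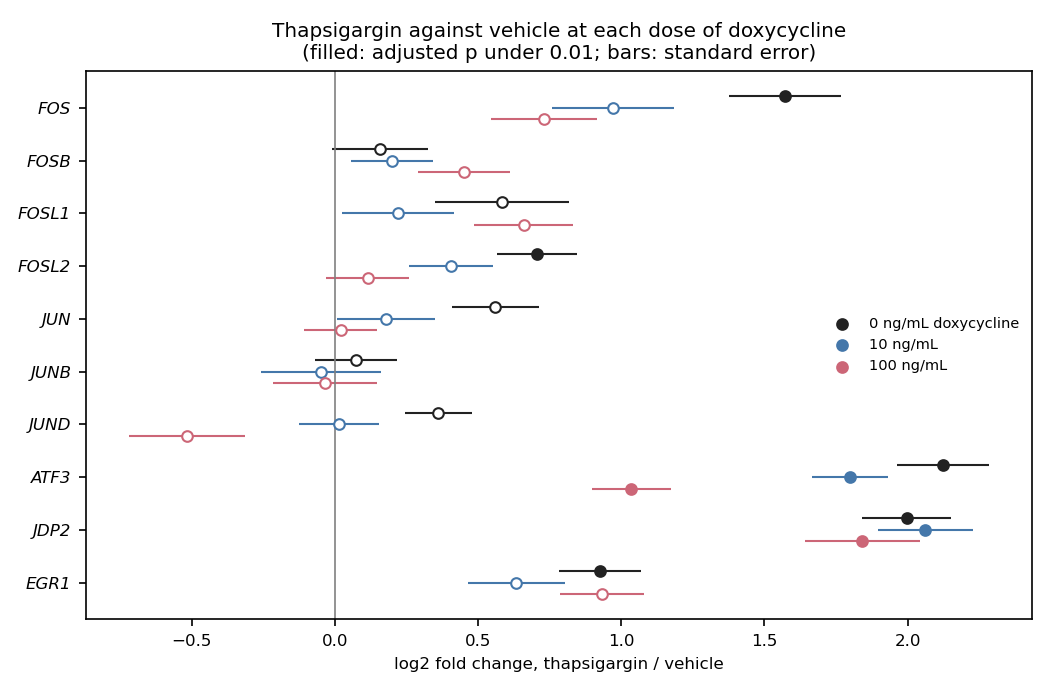
Log2 fold change (x axis) of each gene for thapsigargin against vehicle at 0, 10 and 100 ng/mL doxycycline, with standard errors and filled points for an adjusted p under 0.01. ATF3 is at 2.12, 1.80 and 1.04 in the order of the doses, JDP2 at 2.00, 2.06 and 1.84, and JUND at 0.36, 0.02 and -0.52.

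The difference in the thapsigargin response between induced and uninduced cells was tested as an interaction. Between 10 and 0 ng/mL, 0 of 10 genes passed, and 0% of 14857 genes did. At an unadjusted p under 0.05, 0 of 10 passed, against 4.47% of all genes, and DESeq2 called 0 of 10, against 0.0202%. The differences ran from -0.59 ± 0.30 for FOS to 0.08 ± 0.21 for JDP2. Between 100 and 0 ng/mL, 0 of 10 passed, against 0.0406% of 14768 genes. At an unadjusted p under 0.05, 5 of 10 passed, against 24.7% of all genes, all with a difference below 0, and DESeq2 called 1 of 10, ATF3, against 2.94% of the genes it tested. For ATF3 the difference was -1.003 ± 0.212 on the log2 scale (adjusted p = 0.0393), and without High ERN2 stress replicate 1 it was -1.18 (adjusted p = 0.00297). The other 4 were JUND at -0.79 ± 0.24 (adjusted p = 0.088), FOS at -0.76 ± 0.26 (adjusted p = 0.106), FOSL2 at -0.50 ± 0.19 (adjusted p = 0.127) and JUN at -0.45 ± 0.21 (adjusted p = 0.195). Without High ERN2 stress replicate 1, JUND passed as well, at -1.09 (adjusted p = 0.00294), so that 2 of 10 did against 8.60% of all genes in that fit. For JDP2 the difference was -0.07 ± 0.24 and for EGR1 0.10 ± 0.21, each smaller than its standard error.

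Doxycycline was then compared in cells with vehicle, to show what induced ERN2 goes with in cells that had no thapsigargin. At 10 against 0 ng/mL, 0 of 10 genes passed in edgeR, against 0.193% of 14497 genes, and 0 of 10 in DESeq2, against 3.26%. At an unadjusted p under 0.05, 3 of 10 passed (EGR1, FOS and JUN), all higher, against 30.5% of all genes, a share near that of the 10. All 10 log2 fold changes were above 0, between 0.04 and 0.57, and groups did not overlap for 1 of 10 genes, EGR1, against 29.8% of all genes. Without Low ERN2 control replicate 1, the lowest library for 9 of the genes, EGR1 and JUN passed, with log2 fold changes of 0.48 (adjusted p = 0.00354) and 0.40 (adjusted p = 0.00617), 2 of 10 genes against 18.8% of all genes in that fit.

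At 100 against 0 ng/mL with vehicle, EGR1 rose, 1 of 10 genes against 0.838% of 14444 genes called higher, and 0 of 10 fell, against 7.49%. EGR1 had 75.3, 66.4 and 73.1 CPM without doxycycline and 108, 127 and 127 CPM at 100 ng/mL. No induced library reached down to the uninduced range, and the log2 fold change of 0.71 ± 0.11 (adjusted p = 0.000813) passed in 6 of 6 fits that left out a library. Groups did not overlap for 8 of 10 genes, against 35.8% of all genes, and the median log2 fold change was 0.40 against -0.01 over all genes. JUN at 0.42 ± 0.11 (adjusted p = 0.0179), ATF3 at 0.48 ± 0.12 (adjusted p = 0.0186) and FOSL1 at 0.59 ± 0.16 (adjusted p = 0.0303) were next in size of the test and did not pass. JUND had 90.7, 78.5 and 81.8 CPM without doxycycline and 57.9, 76.4 and 60.7 CPM at 100 ng/mL. Its induced libraries were all lower, with a log2 fold change of -0.40 ± 0.13 (adjusted p = 0.0602), which without High ERN2 control replicate 2 was -0.54 and passed (adjusted p = 0.00257). Between 100 and 10 ng/mL, 0 of 10 genes passed in edgeR, against 2.45% of 14549 genes, and 0 of 10 in DESeq2, against 5.61%. At an unadjusted p under 0.05, 4 of 10 did, against 16.1% of all genes, of which JUND was the lower one, at -0.56 ± 0.14 (adjusted p = 0.0413), and the groups of 4 of 10 genes did not overlap, against 22.9% of all genes.

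In cells with thapsigargin, 10 against 0 ng/mL gave small differences. In edgeR 0 of 10 passed, against 0% of 14509 genes, 0 of 10 at an unadjusted p under 0.05, against 4.22%, and DESeq2 called 0 of 10, against 0.342%. With the replicate numbers as pairs, which the libraries of these groups bear out, 0 of 10 passed, against 3.89% (564 genes). The log2 fold changes ran from -0.21 ± 0.15 for FOSL2 to 0.13 ± 0.20 for JUNB, and groups did not overlap for 0 of 10 genes, against 10.0% of all genes.

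At 100 against 0 ng/mL with thapsigargin, JUND fell and EGR1 rose. These were 1 of 10 genes lower, against 9.00% of 14358 genes, and 1 of 10 higher, against 1.53%. The groups of 5 of 10 genes did not overlap, against 36.5% of all genes. JUND, the JUN family member that most resting cells hold at a steady level, had 114, 91.5 and 115 CPM without doxycycline and 58.4, 34.4 and 41.4 CPM at 100 ng/mL. The highest induced library was below the lowest uninduced one, the log2 fold change was -1.26 ± 0.19 (adjusted p = 0.000576), and it passed in 6 of 6 fits that left out a library, with values from -1.48 to -1.10. EGR1 had 119, 115 and 172 CPM against 214, 264 and 203 CPM. The groups were separate, with a log2 fold change of 0.75 ± 0.17 (adjusted p = 0.0089), but the call passed in 2 of 6 fits that left out a library, those without No ERN2 stress replicate 3 or High ERN2 stress replicate 1 (adjusted p up to 0.0703 in the others).

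FOSB and FOSL1 had the largest log2 fold changes of the FOS members in this comparison. FOSB had 17.0, 12.3 and 14.0 CPM without doxycycline and 25.2, 24.1 and 21.1 CPM at 100 ng/mL, and FOSL1 10.3, 10.7 and 19.7 CPM against 19.8, 25.5 and 20.6 CPM. The groups of both were separate, for FOSL1 by a small margin, and the log2 fold changes of 0.70 ± 0.18 (adjusted p = 0.0183) and 0.70 ± 0.24 (adjusted p = 0.0547) did not pass. FOSB passed without High ERN2 stress replicate 1 (adjusted p = 0.00708), and FOSL1 without No ERN2 stress replicate 3 (1.04, adjusted p = 0.00674). ATF3 had lower values at 100 ng/mL in each library, with a log2 fold change of -0.58 ± 0.17 (adjusted p = 0.0264), which without High ERN2 stress replicate 1 was -0.70 and passed (adjusted p = 0.00241), while FOS at -0.20 ± 0.19, FOSL2 at -0.29 ± 0.16, JUN at -0.09 ± 0.17, JDP2 at -0.24 ± 0.19 and JUNB at 0.24 ± 0.17 had overlapping groups. Between 100 and 10 ng/mL with thapsigargin, JUND fell, 1 of 10 genes against 5.32% of 14493 genes called lower, and groups did not overlap for 5 of 10 genes, against 31.4% of all genes. JUND had 102, 81.3 and 104 CPM at 10 ng/mL, and its log2 fold change was -1.09 ± 0.20 (adjusted p = 0.00367), which passed in 1 of 6 fits that left out a library, the one without High ERN2 stress replicate 1 (adjusted p up to 0.043 in the others). FOSB at 0.59 ± 0.18, FOSL1 at 0.68 ± 0.21, EGR1 at 0.65 ± 0.18 and ATF3 at -0.45 ± 0.16 had separate groups and adjusted p of 0.0452, 0.0463, 0.034 and 0.0714, and EGR1 passed without Low ERN2 stress replicate 3 or High ERN2 stress replicate 1. In the fit without the latter, 2 of 10 genes passed here against 18.4% of all genes, and 4 of 10 did at 100 against 0 ng/mL against 27.2%. Comparisons that name the same group share its libraries and so are not independent of each other.

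**Figure D3:**
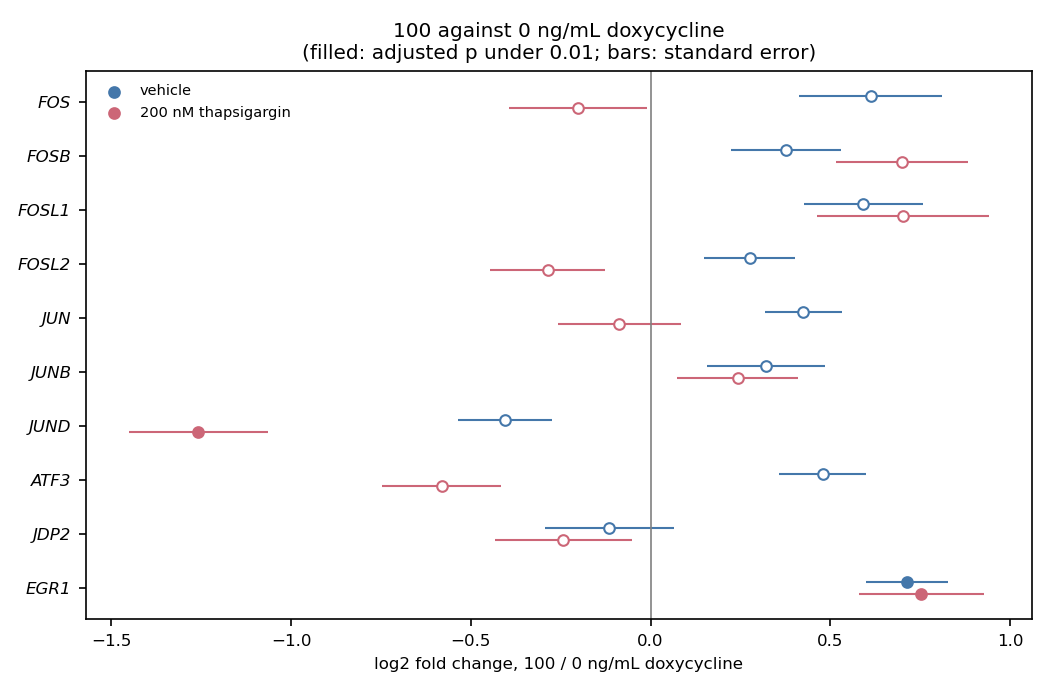
Log2 fold change (x axis) of each gene at 100 against 0 ng/mL doxycycline, in vehicle (blue) and in 200 nM thapsigargin (red), with standard errors and filled points for an adjusted p under 0.01. EGR1 is at 0.71 and 0.75, JUND at -0.40 and -1.26, and ATF3 lies on opposite sides of 0, at 0.48 and -0.58.

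The order of the group levels differed from gene to gene. For ATF3 it was No, Low and High ERN2 control (95.1 ± 14.3, 108 ± 9 and 136 ± 6 CPM, SD, n = 3), then High, Low and No ERN2 stress (275 ± 40, 378 ± 50 and 412 ± 97 CPM). The neighbours No and Low ERN2 overlapped in both arms, and the other neighbours did not. For EGR1 the order was No, Low and High ERN2 control (71.6 ± 4.6, 93.3 ± 12.3 and 121 ± 11 CPM), then No, Low and High ERN2 stress (135 ± 32, 145 ± 33 and 227 ± 32 CPM). The doses came in the same order in both arms. High ERN2 control overlapped with No ERN2 stress and the latter with Low ERN2 stress, and the other neighbours did not overlap. For JUND the lowest groups were High ERN2 stress (44.7 ± 12.3 CPM) and High ERN2 control (65.0 ± 10.0 CPM), whose libraries overlapped, and the other 4 groups had means from 83.7 to 107 CPM.

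With its levels divided by exon length, the summed mRNA of the 7 FOS and JUN genes was mostly JUN. JUN made up 53.6 ± 1.4% of it in No ERN2 control (SD, n = 3), 61.5 ± 1.2% in High ERN2 control, 56.5 ± 3.0% in No ERN2 stress and 63.0 ± 0.9% in High ERN2 stress. JUND made up 27.7 ± 1.5%, 17.8 ± 0.8%, 25.9 ± 2.6% and 12.5 ± 2.2% of it, in the same order of groups. In both arms the share of JUND at 100 ng/mL was below that of all uninduced libraries. The 4 FOS genes together made up 8.24 ± 0.51% in No ERN2 control and 13.5 ± 1.4% in High ERN2 stress, where FOSL1 alone reached 6.18 ± 1.27%. These shares describe mRNA and not protein, and were not tested.

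**Figure D4:**
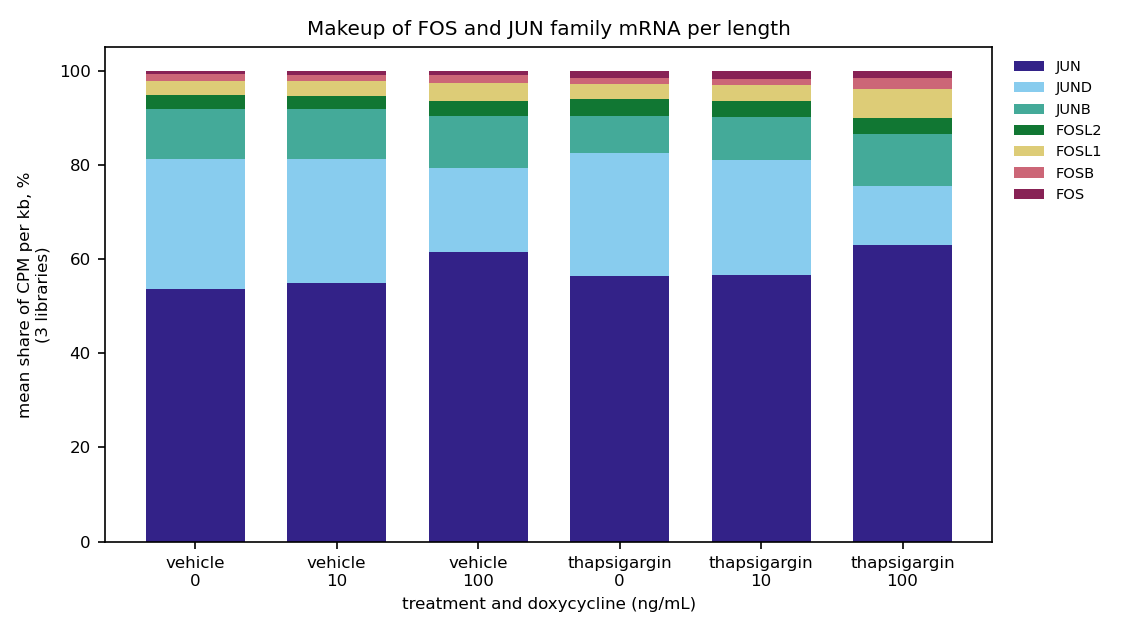
Mean share (y axis, percent, n = 3) of each FOS and JUN gene in their summed CPM per kb, for vehicle and thapsigargin at 0, 10 and 100 ng/mL doxycycline. The bar of JUND shrinks at 100 ng/mL to 17.8% with vehicle and 12.5% with thapsigargin, and that of FOSL1 is widest, at 6.18%, in the last group.

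The genes most like each member across the libraries were found by Pearson's r of log2 CPM, as a description over 18 libraries that share the contrast of thapsigargin with vehicle. ATF3 was nearest to RCAN1 (r = 0.979), a calcineurin inhibitor, to STOX2 (0.978) and to DDIT3 (0.977), which encodes the stress factor CHOP. JDP2 was nearest to NHSL1 (0.984), to STC2 (0.978), a secreted stanniocalcin, and to CRELD1 (0.977). JUND was nearest to FGFR3 (0.976), a growth factor receptor, NAT14 (0.97) and SLC38A7 (0.965), and EGR1 to SFSWAP (0.96) and to SPRY4 (0.956), an inhibitor of MAP kinase signalling. FOS was nearest to LOC729218 (0.97) and FOSL2 to TCF20 (0.962). Among the 10 genes the pair FOS and ATF3 had the highest r (0.946), followed by ATF3 and JDP2 (0.934), and FOSB and JUND had the lowest (-0.671).

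**Figure D5:**
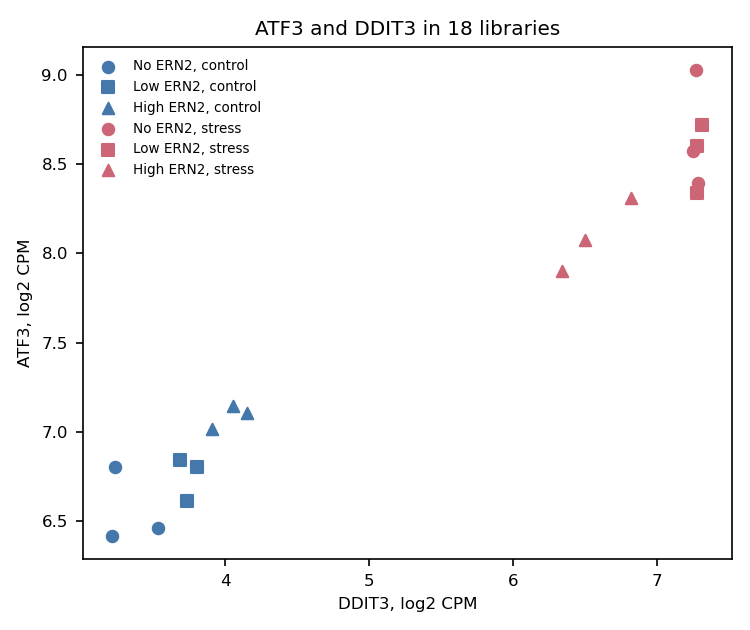
ATF3 (y axis) against DDIT3 (x axis), both in log2 CPM, in the 18 libraries; colours give vehicle (blue) and thapsigargin (red), shapes the dose. The High ERN2 stress libraries lie below the other stressed libraries on both axes, and r over the 18 libraries is 0.977.

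Other genes around AP-1 were counted by lists written from general knowledge, but with earlier results of these data known. The counts set against all genes below are therefore descriptions and no test of the lists. In uninduced cells the median log2 fold change with thapsigargin was 2.13 for the ATF4 and CHOP branch, 0.40 for AP-1 partners, 0.39 for other early response genes, 0.28 for feedback genes, 0.18 for promoter-binding factors, 0.05 for AP-1 targets and -0.07 for upstream kinases, beside -0.01 for all genes. In uninduced cells thapsigargin raised 9 of 9 genes of the ATF4 and CHOP branch, against 6.45% of all genes called higher. The branch list holds factors upstream of ATF3 or partners of it, such as DDIT3 at 3.96 ± 0.13, CEBPB at 2.42 ± 0.15 and ATF4 at 1.28 ± 0.13 on the log2 scale. Thapsigargin raised 9 of 9 at 10 ng/mL, against 1.16% of all genes, and 3 of 9 (9 of 9 in DESeq2) at 100 ng/mL, against 0.180%. At that dose DDIT3 was at 2.56 ± 0.17. DDIT3 had 155 ± 2 CPM in No ERN2 stress, 157 ± 2 in Low ERN2 stress and 94.9 ± 16.4 in High ERN2 stress, against 9.98 ± 1.28, 13.3 ± 0.6 and 16.4 ± 1.4 CPM in the control groups. At 100 against 0 ng/mL DDIT3 rose with vehicle, at 0.67 ± 0.15 (adjusted p = 0.0092), and fell with thapsigargin, at -0.71 ± 0.15 (adjusted p = 0.00506), the same sides of 0 as ATF3. With vehicle 3 of 9 branch genes were called higher, against 0.838% of all genes, and 0 lower. With thapsigargin DDIT3 was the only 1 of 9 called lower, against 9.00% of all genes, and 0 were called higher. ATF4 was not called in either arm.

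Of the partners of the ATF2, BATF and MAF families, 3 of 10 tested rose with thapsigargin in uninduced cells, namely MAFF at 1.46 ± 0.26, CREB5 at 0.69 ± 0.12 and ATF2 at 0.64 ± 0.12, and MAF fell, at -0.86 ± 0.15. Over all genes in this comparison, 6.45% were called higher and 4.74% called lower. Among 32 other early response genes tested, 12 rose, such as PPP1R15A at 1.62 ± 0.12, which encodes GADD34, GADD45A at 1.57 ± 0.13 and NR4A2, a nuclear receptor, at 1.52 ± 0.15, while BTG2 fell, at -0.74 ± 0.13, and TRIB1 fell, at -0.64 ± 0.14. PPP1R15A is also in the ATF4 and CHOP list and is counted in both, here and below. Of 17 feedback phosphatases and inhibitors tested, DUSP16, a phosphatase of JNK, rose at 1.11 ± 0.10, SPRY4 at 1.11 ± 0.18 and DUSP4 at 0.86 ± 0.17, and 14 were not called. The kinases upstream and the promoter-binding factors gave 0 of 20 and 0 of 10 calls in edgeR, with 6 and 3 at an unadjusted p under 0.05 (35.9% of all genes), and 1 and 0 in DESeq2.

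Of 15 genes often cited as AP-1 targets and tested, CXCL8 rose at 1.92 ± 0.38, VEGFA at 1.54 ± 0.11 and HBEGF at 0.67 ± 0.14, while CCND1, which encodes cyclin D1, fell at -0.98 ± 0.15. These were 3 of 15 higher and 1 of 15 lower, against the 6.45% and 4.74% above. Between 0 and 100 ng/mL of doxycycline with vehicle, TIMP1 and CD44 of this list fell, 2 of 15 against 7.49% of all genes called lower. TIMP1, an inhibitor of matrix proteases, had 74.7 ± 5.8 CPM in No ERN2 control and 14.9 ± 3.6 in High ERN2 control, a fall of 2.37 ± 0.17 on the log2 scale (adjusted p = 1.48e-06). CD44, a receptor for hyaluronan, had 81.2 ± 11.4 and 21.9 ± 4.0 CPM, a fall of 1.94 ± 0.16 (adjusted p = 3.49e-06). With thapsigargin TIMP1 fell by 2.81 ± 0.19 and CD44 by 2.13 ± 0.15 from 0 to 100 ng/mL, HBEGF fell by 0.91 ± 0.16 and CCND1 rose by 0.77 ± 0.18. That is 3 of 15 lower, against 9.00% of all genes, and 1 of 15 higher, against 1.53%. Of the early response genes, NR4A1, GADD45A and PPP1R15A rose with 100 ng/mL in vehicle, at 0.75 ± 0.15, 0.75 ± 0.13 and 0.68 ± 0.12, and 29 of 32 were not called. Over all genes 0.838% were called higher there, against these 3 of 32. The libraries are of bulk cells, so a smaller share of responding cells and less RNA per cell cannot be told apart.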

How the data were processed

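RNA-Seq libraries of HEK293doxERN2 cells were made with a stranded mRNA kit. Per the labels' processing notes, the authors aligned reads to hg38 with STAR, and the deposited values are whole-number counts for each gene symbol, not normalized. The annotation, the strand setting and the version of STAR are not given in the sources used here. Groups came from the sample labels and columns from the column numbers in the labels. The table has 25435 rows and 25433 symbols, 28 of them turned into dates by a spreadsheet. Between replicates, chi-square per degree of freedom was 7.33 to 63.8, so no library was counted as a duplicate.

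Counts of the groups compared were filtered (filterByExpr, minimum count 10), TMM-normalized and tested with edgeR 4.0.16 (glmQLFit, glmQLFTest; R 4.3.3). P-values were adjusted by Benjamini-Hochberg over all genes, at the study's threshold of 0.01. Each SE was taken as the absolute log2 fold change over the root of its F statistic. CPM were scaled by TMM over 18 libraries and log2 CPM had a prior count of 2. Tests were also run on counts simulated gene by gene, without shifts shared by the genes of a library. That run does not show how far the calls here hold. Alternatives were DESeq2 1.42.0, RLE size factors, no filter, all 6 groups in one fit, the replicate number as a block, a threshold of 0.05 and each library left out. Replicate numbers were taken to pair libraries only for 10 against 0 ng/mL doxycycline with thapsigargin, where same-numbered libraries deviated together (r 0.343 to 0.468) and the block called 0 of 10 genes too. An exact permutation of 3 against 3 libraries cannot give a two-sided p under 0.1. Exon lengths came from GENCODE 29 and promoters from RefSeq, both GRCh38. Precision rests on 3 libraries a group, with 14876416 to 24652240 counts each, and FOS and JDP2 had the fewest reads. The members and lists were chosen with earlier results of these data known. All 10 members are named, and of the lists only genes past the threshold. Figures were drawn with matplotlib 3.10.9.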

Additional observations from a re-analysis of the deposited data

Results flagged for a closer look

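ATF3 lay on opposite sides of 0 under the same contrast of doxycycline in vehicle and in thapsigargin. At 100 against 0 ng/mL its log2 fold change was 0.48 with vehicle and -0.58 with thapsigargin, and the test of the difference gave -1.003 (edgeR adjusted p = 0.0393, DESeq2 adjusted p = 0.00131). At 100 against 10 ng/mL it was 0.31 with vehicle and -0.45 with thapsigargin, each library of the higher dose lying above those of the lower with vehicle and below them with thapsigargin, and this difference was not tested.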

How the results depend on the processing

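The counts of genes called out of 10 depended on the processing in most comparisons. Thapsigargin against vehicle called 5 genes without doxycycline and 2 at 100 ng/mL, and at 100 ng/mL DESeq2 called 4. Doxycycline at 100 against 0 ng/mL with vehicle called 1 gene, 4 with DESeq2, 3 without the filter and 4 at a threshold of 0.05; with thapsigargin it called 2, and 4 without the filter, with all 6 groups in one fit or at 0.05. At 100 against 10 ng/mL, the count was 0 with vehicle and 1 at 0.05, and with thapsigargin it was 1, and 3 with DESeq2, 2 without the filter and 4 at 0.05. The interaction at 100 ng/mL went from 0 to 1 with DESeq2, without the filter and at 0.05. Most counts with DESeq2, without the filter or with all 6 groups in one fit stand here without their share of all genes. A rise in them therefore cannot be read as particular to the 10 genes. The calls over all genes changed too. At a threshold of 0.05 they went from 1203 to 2063 of 14444 genes at 100 against 0 ng/mL with vehicle. With thapsigargin they went from 1512 to 3018 of 14358 there, and from 805 to 2061 of 14493 at 100 against 10 ng/mL. DESeq2 called 2.94% of genes for the interaction at 100 ng/mL, against 0.0406% in edgeR. RLE size factors changed 0 of 11 counts of the 10 genes. The cause of these changes was not tested.

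With the replicate block, thapsigargin called 8 genes in uninduced cells, 5 at the low dose (10 ng/mL) and 0 at the high dose, against 24.8%, 24.8% and 0.0277% of all genes. At the high dose ATF3 had an adjusted p of 0.0961 and JDP2 of 0.0337. The block called 0 genes at 100 against 0 ng/mL with vehicle (EGR1 at 0.0126) and 1 with thapsigargin, and 1 at 100 against 10 ng/mL with vehicle, against 5.19%, 9.68% and 8.41% of all genes, and changed no other count beyond 1.5 times. Of 27 same-numbered pairs, 14 had deviations with a correlation over 0.1 (range -0.369 to 0.521), and in 1 of 9 comparisons every library correlated best with its own number.

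With each library left out, the counts ran from 4 to 6 for thapsigargin without doxycycline, 2 to 2 at 10 and 0 to 5 at 100 ng/mL, from 0 to 2, 1 to 2 and 0 to 1 for doxycycline with vehicle (10 against 0, 100 against 0 and 100 against 10 ng/mL), from 0 to 0, 1 to 4 and 0 to 2 with thapsigargin, and from 0 to 0 and 0 to 2 for the interactions at 10 and 100 ng/mL. High ERN2 stress replicate 1 was the library whose absence gave 5, 4, 2 and 2 at 100 ng/mL, against 17.6%, 27.2%, 18.4% and 8.60% of all genes. Low ERN2 control replicate 1 did so for the 2 and the 1 with vehicle, and the count for thapsigargin at 100 ng/mL was 0 without any one control library or High ERN2 stress replicate 2. With thapsigargin, 100 against 0 ng/mL gave 1 without No ERN2 stress replicate 1 or 2 or High ERN2 stress replicate 2 or 3, and 100 against 10 ng/mL gave 0 without Low ERN2 stress replicate 1 or 2 or High ERN2 stress replicate 2 or 3. With vehicle, 100 against 0 ng/mL gave 2 without No ERN2 control replicate 3 or High ERN2 control replicate 1 or 2. Directions were followed for 58 changes, those of at least 0.3 on the log2 scale in the main fit or called under any setting. Of their 762 recomputed values, 1 turned its direction, the FOSL1 interaction at 10 ng/mL, which ran from -0.55 to 0.0104 with 1 library left out. Smaller changes, which lie nearer to 0 and turn more easily, are not in this count. Over all genes, calls for thapsigargin at 100 ng/mL were 29 in edgeR and ran from 4 to 2568 with 1 library left out, and for the interaction at 100 ng/mL they were 6 and ran from 2 to 1286, so the background percentages there moved with 1 library.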
